A study of Mus musculus with 10 samples.

Results

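Regulatory T cells (Treg) are the CD4 T cells that hold other immune cells in check, and Foxp3 is the factor that gives them this identity. The data described here are the transcriptome of wild-type Treg from mice bred under specific-pathogen-free conditions. The 2 libraries of wild-type Treg (WT) among the 10 libraries of the series were taken, their gene tables were joined by gene identifier, and blank rows were dropped. Of 32767 genes in the tables, 10244 reached 1 FPKM (fragments per kilobase of transcript, scaled by the mapped fragments of the library) in both libraries and are called expressed below. The other 8 libraries come from Treg with loxP-flanked Tcf7 and Lef1 and from sorted Treg subsets, and were not compared.

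The donors had the genotype Foxp3cre/wt Tcf7wt/wt Lef1wt/wt on a C57BL/6 background, so 1 of the 2 Foxp3 alleles carried the Cre recombinase and both TCF1 family genes were intact. Foxp3 lies on the X chromosome, and animals with 1 Cre allele and 1 unmodified allele are female. The noncoding RNA Xist, made from the inactive X chromosome, was present at 55.3 and 39.5 FPKM in replicates 1 and 2, the order used for every pair of values below. CD4 T cells of spleen and lymph nodes were enriched with magnetic beads and then sorted on a cytometer, so lymph node and spleen Treg were mixed in each library. The labels call the cells only lymphocytes, do not name the sort gate, and give no age. Whether each replicate was 1 animal or a pool is not in them either, so the spread between the libraries may be technical. There is 1 group with 2 libraries, and no test of significance was possible.

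The cells carried the Treg markers. Foxp3, the lineage factor, was at 119.9 and 106 FPKM. Il2ra, the high-affinity chain of the interleukin-2 receptor (CD25), was at 176 and 187 FPKM, and the inhibitory receptor Ctla4 was at 125 and 114 FPKM. Ikzf2, the Ikaros family factor Helios, was at 77.3 and 60.4 FPKM, and Tcf7, the gene of TCF1, was at 456 and 501 FPKM. All 5 markers stood above the median of 18.0 FPKM over the 9613 expressed protein-coding genes, in both libraries.

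Treg differentiate in the thymus or from naive CD4 T cells, and their survival depends on interleukin-2, which they take up but make little of. Resting (central) Treg recirculate through lymphoid organs with the homing receptor CCR7, while effector Treg lose it and gain receptors for inflamed tissue. Suppression is attributed to CTLA-4, to cytokines such as TGF-beta and interleukin-10, to consumption of interleukin-2, and to adenosine made from extracellular nucleotides.

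The depth of the libraries on the FPKM scale can be read from their lowest values. A gene with 1 fragment has an FPKM fixed by its length and by the size to which the library was scaled. The step was sought among 2933 protein-coding genes with 1 annotated transcript over 800 bases. It was read from 122 genes in replicate 1 and 101 in replicate 2, whose low values grouped together and were taken as 1 fragment. On this reading, 1 fragment was worth 0.0289 FPKM in replicate 1 and 0.0394 FPKM in replicate 2 for a gene of 1 kb. Replicate 2 thus had 73.3% of the depth of replicate 1. A gene of 1 kb at 1 FPKM then rests on about 34.6 fragments in replicate 1 and 25.4 in replicate 2, with a counting error of 17.0% and 19.9%. At 10 FPKM the counting error falls to 5.37% and 6.28%. Intervals of this kind cover counting error only.

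The libraries had a Pearson correlation of 0.992 across the 10244 genes on log2(FPKM + 1) and a Spearman rho of 0.991, as a description across genes, which are not independent. The standard deviation of log2(replicate 1 / replicate 2) was 0.34 for protein-coding genes at 1 to under 10 FPKM, 0.18 at 10 to under 100 FPKM and 0.14 at 100 FPKM or more. Of the 10244 genes, 128 (1.25%) were more than 2-fold apart, and 92 of these (0.898% of all) were higher in replicate 1. The count was 71 among protein-coding genes, 64 with a pseudocount of 1, 58 at a mean of at least 5 FPKM and 226 with no filter and a pseudocount of 1. For 1 gene at 1 to under 10 FPKM, 1 standard deviation of the ratio between the libraries is 1.27-fold. Just under the threshold of 1 FPKM, by the lower of the 2 values, stood Zfp128 at 0.999998, Ybey at 0.998 and Tnnt3 at 0.998, and just above it stood Zfp946 at 1.0007, Ttbk2 at 1.0024 and Cenpm at 1.001.

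**Figure D1:**
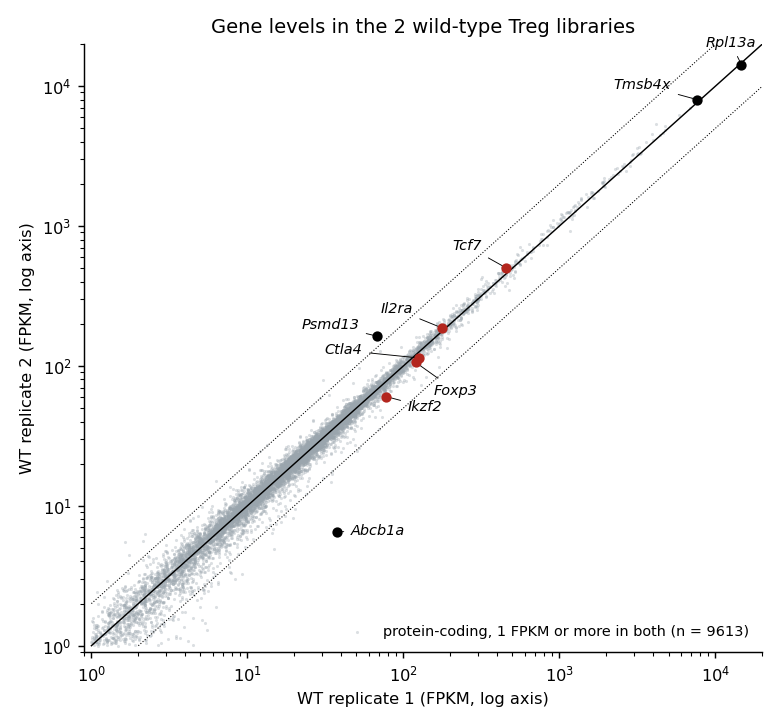
FPKM in WT replicate 1 (x axis) against WT replicate 2 (y axis), both on log axes, for the 9613 protein-coding genes with at least 1 FPKM in both libraries. The solid line marks equal values and the dotted lines a 2-fold difference. The 5 Treg markers (red) lie close to the line, Rpl13a and Tmsb4x lie at the top, and Abcb1a and Psmd13 lie outside the dotted lines.

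Promoter letters were read beside the levels. RefSeq promoters (GRCm38.p6) were matched for 7851 of the 9613 expressed protein-coding genes. CG dinucleotides, which are frequent in promoters of broadly used genes, had a median of 17 in the 250 bases before the start in expressed genes, and of 6 over all 32851 promoters of the table. Among the markers the window held 3 CG pairs in Il2ra, 6 in Foxp3, 7 in Ctla4 and 37 in Tcf7, and Ikzf2 had no entry. It held 24 in Rpl13a, 18 in Rps27, 14 in Rps15 and 8 in B2m. The windows of Foxp3, Rpl13a and Rps27 overlap annotated exons, and that of Tcf7 may hold coding sequence of a longer isoform, so their letters are not printed. The stretches below are the 120 bases before the most upstream RefSeq start, 5′ to 3′ on the strand of the gene, with each CG pair in capitals. They are shown for the markers Il2ra and Ctla4 and, among the 12 most abundant genes, for B2m and Rps15. Each of these genes has fewer CG pairs in its 250 bases than the median of expressed genes. The stretches lie outside the exons annotated in GENCODE vM21, apart from the last base of B2m.
Il2ra (chr2:11642672-11642791, + strand): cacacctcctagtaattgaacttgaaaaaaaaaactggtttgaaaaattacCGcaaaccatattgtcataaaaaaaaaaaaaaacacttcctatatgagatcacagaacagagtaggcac
Ctla4 (chr1:60908905-60909024, + strand): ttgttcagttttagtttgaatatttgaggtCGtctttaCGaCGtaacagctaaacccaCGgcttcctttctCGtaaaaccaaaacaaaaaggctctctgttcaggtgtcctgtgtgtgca
B2m (chr2:122147567-122147686, + strand): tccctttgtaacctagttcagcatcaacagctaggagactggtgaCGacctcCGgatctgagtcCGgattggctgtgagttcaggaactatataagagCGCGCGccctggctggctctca
Rps15 (chr10:80292311-80292430, + strand): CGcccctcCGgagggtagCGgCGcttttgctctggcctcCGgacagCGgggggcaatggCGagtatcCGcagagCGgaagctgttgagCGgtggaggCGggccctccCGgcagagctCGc
The Il2ra stretch has 1 CG pair and runs of A, the Ctla4 stretch has 5, the B2m stretch has 6 and the Rps15 stretch has 13. B2m, at 4631 and 4587 FPKM, is thus far above Il2ra in level with 8 CG pairs in its 250 bases, fewer than the median of expressed genes.

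The sequence CCGGAAG on either strand, the core read by ETS family factors, stood in the 250 bases before a start of 18.3% of the expressed genes with an entry, against 6.91% of all promoters in the table. By level it was found in 14.9% of genes at 1 to under 10 FPKM, 19.9% at 10 to under 100 FPKM and 19.3% at 100 FPKM or more. TATAAA within the last 50 of these bases, on the gene's strand, was in 1.49%, 1.02% and 4.11% of the same classes, against 2.63% of all promoters. CCAAT on either strand was in 43.8%, 39.8% and 42.0%, against 33.8%. An expressed gene was counted if any of its promoters held the letters, and in the table each promoter was counted once. Under 1 FPKM fewer than 80% of genes had an entry, so the shares there are void and not given. A match is a description of letters and not of binding.

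On the per-length FPKM scale, the top of the transcriptome was ribosomal and structural. Genes with a failed estimate, such as Eef1a1 and mt-Co1, listed at 0 in both libraries, could take no place in this order. The gene with the highest level was Rpl13a, a protein of the large ribosomal subunit, at 14668 and 14219.6 FPKM. Next came Tmsb4x, thymosin beta 4, which holds actin monomers, at 7596 and 8014 FPKM, and Rps27, of the small subunit, at 7053 and 8249.5 FPKM. Actb, cytoplasmic actin, was at 6865 and 6929.6 FPKM, and the acidic stalk proteins Rplp1 and Rplp2 were at 5842 and 6213 FPKM and at 4731 and 4855 FPKM. The order of neighbours at this level is not fixed, since Rps27 was above Tmsb4x in replicate 2 and below it in replicate 1.

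Of the 30 protein-coding genes with the highest mean, 21 were ribosomal proteins. The others were Tmsb4x, Actb, mt-Cytb at 4751 and 5153 FPKM, B2m, Tpt1 at 3605 and 3995 FPKM, mt-Nd1 at 3133 and 3636 FPKM, Gnb2l1 (the ribosomal scaffold RACK1) at 2856 and 2941 FPKM, H2-K1 at 2685 and 2476 FPKM and Pfn1, which promotes actin assembly, at 2450.3 and 2486 FPKM. The 10 highest genes held 11.3% and 11.5% of the summed FPKM of protein-coding genes, and the 100 highest held 38.3% and 39.2%. The lists of the 100 highest in each library shared 98 genes.

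Among expressed protein-coding genes, 3063 had a mean of 1 to under 10 FPKM, 5733 of 10 to under 100, 728 of 100 to under 1000 and 89 of 1000 or more. Expressed genes made up 47.6% of the 20193 protein-coding genes in the tables, the share against which the counts of the lists below can be read. In a bulk library, fewer cells of a type and less RNA per cell cannot be told apart.

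By class, 80 of 82 genes named as cytoplasmic ribosomal proteins were expressed, beside 47.6% of all protein-coding genes, and together they held 25.5% and 26.3% of all summed FPKM. The 2 that were listed at 0 in both libraries, Rpl3l and Rpl10l, are used in muscle and testis. Thymosins, profilins and cofilins held 2.07% and 2.11%, the 13 mitochondrially encoded genes 2.09% and 2.27%, with 6 of the 13 listed at 0 and so missing from this share, and the 19 genes of MHC class I presentation 2.01% and 1.89%. The 223 transcription factors and their direct inhibitors described next held 1.21% and 1.17%. Ribosomal proteins have many processed copies in the genome, which fragments can match as well, so the order among them is uncertain.

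Transcription factors of 14 families and a list of Treg factors, 223 genes with their direct inhibitors, included 130 expressed genes (58.3%), of which 16 had a mean of 100 FPKM or more. Ets1, an ETS family factor needed for Treg development, was highest at 616 and 653 FPKM. Tcf7 was the second at 456 and 501 FPKM. Klf2, which drives the homing receptors of resting T cells, was at 281 and 277 FPKM.

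Below these stood Ikzf1 (Ikaros) at 168 and 208 FPKM, Lef1, the close relative of TCF1, at 160.4 and 167 FPKM, and Nfkbia, the inhibitor of NF-kappaB, at 164 and 149 FPKM. Foxp3 stood at place 15 by mean level, between Klf3 at 122.9 and 119.5 FPKM and Cbfb, the partner of Runx proteins, at 101 and 107 FPKM. Lef1 and Nfkbia, at 160.4 to 167 and 149 to 164 FPKM, overlapped in range, and Foxp3 and Cbfb overlapped as well. Ets1, Tcf7 and Klf2 did not overlap with one another in the 2 libraries.

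**Figure D2:**
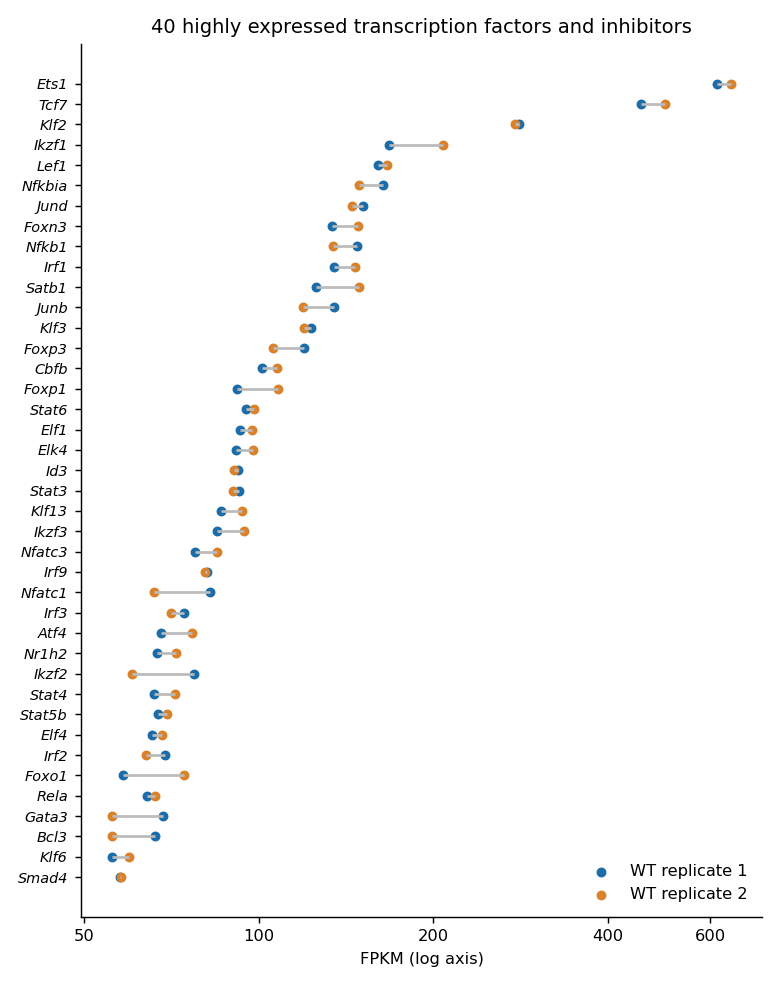
FPKM (log axis) of 40 transcription factors and inhibitors from the top of the order by mean level (not every member is drawn), in WT replicate 1 (blue) and replicate 2 (orange), with a line joining the libraries. Ets1 and Tcf7 lead in both libraries, and Foxp3, at 119.9 and 105.9 FPKM, lies between Klf3 and Cbfb.

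All 5 Ikaros family genes were expressed, with Ikzf3 (Aiolos) at 84.8 and 94.4 FPKM, Ikzf2 at 77.3 and 60.4 FPKM, Ikzf4 (Eos, a Foxp3 partner) at 47.5 and 43.9 FPKM and Ikzf5 at 10.1 and 9.999 FPKM. All 7 STAT genes were expressed, and Stat5b and Stat5a, which carry the interleukin-2 signal, were at 66.99 and 69.3 FPKM and at 38.01 and 38.3 FPKM. Stat6 was at 95.1 and 98.1 FPKM, Stat3 at 92.4 and 90.1 FPKM and Stat4 at 65.9 and 71.7 FPKM. STAT4 conveys interleukin-12 signals, and its receptor chain Il12rb2 was at 0.228 and 0.209 FPKM.

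Of 43 forkhead genes 13 were expressed, with Foxn3 at 134 and 148 FPKM above Foxp3, and with Foxp1 at 91.6 and 108 FPKM and Foxo1, which keeps naive and resting T cells in circulation, at 58.2 and 74.3 FPKM. All 4 genes of the Runx family and Cbfb group were expressed, Runx1 at 35.99 and 29.8 FPKM and Runx3 at 19.4 and 15.6 FPKM. Of 5 NFAT genes, most of which answer to calcium after antigen receptor signals, 4 were expressed, with Nfatc3 at 77.5 and 84.6 FPKM and Nfatc1 at 82.4 and 65.9 FPKM. Nfatc4 was listed at 0 in both libraries. All 11 genes of the NF-kappaB family were expressed, with Nfkb1 at 147 and 134 FPKM, Rela at 64.2 and 66.3 FPKM and c-Rel (Rel), which acts on the Foxp3 gene in thymic Treg, at 21.7 and 21.6 FPKM.

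The factors that define other CD4 T helper lineages were spread over a wide range. Gata3, of the Th2 lineage and also used by tissue Treg, was at 68.5 and 55.7 FPKM. Maf and Batf, used by several effector lineages, were at 40.6 and 31.5 FPKM and at 59.99 and 43.9 FPKM. Bcl6, of follicular helper T cells, was at 11.7 and 10.2 FPKM, Rora at 7.58 and 6.18 FPKM and Tbx21 (T-bet, of Th1 cells) at 4.25 and 2.44 FPKM. Gata3 was thus more than 10-fold above Tbx21 per length in both libraries, and the library difference in each was under 2-fold.

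The partners of TCF1 were present. Of 27 genes of the Wnt pathway and TCF partners 23 were expressed, with Ctnnb1, beta-catenin, at 112 and 114 FPKM and the corepressor Tle3 at 99.8 and 88.9 FPKM. The short Groucho-type protein Aes was at 429 and 461 FPKM and Tle4 at 15.6 and 15.8 FPKM. Axin2, a widely used target of Wnt signals, was at 17.3 and 20.3 FPKM. Of the other TCF genes, Tcf7l1 was at 1.91 and 1.62 FPKM and Tcf7l2 at 0.392 and 0.468 FPKM, so Tcf7 and Lef1 made up nearly all of the family's summed level.

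All 41 genes of the T cell receptor signalling list were expressed, with a median of 114 FPKM over members, 23 of them at 100 FPKM or more. The CD3 chains Cd3g, Cd3d and Cd3e were at 882 and 986 FPKM, at 409.8 and 444 FPKM and at 306 and 307 FPKM, and the signalling zeta chain Cd247 was at 229 and 249 FPKM. The kinase Lck, which starts the signal, was at 463 and 468 FPKM, and Zap70, which relays it, at 168 and 146 FPKM. The adaptors Lcp2 (SLP-76) and Lat were at 509 and 426 FPKM and at 313 and 355 FPKM.

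Inhibitors of the receptor signal were expressed too. Cd5 was at 336 and 344 FPKM, Csk, which keeps Lck in check, at 181 and 177 FPKM, and the phosphatases Ptpn6 (SHP-1) and Ptpn22 at 129 and 133 FPKM and at 125 and 104 FPKM. The lowest member of the list was Ubash3b at 20.7 and 20.98 FPKM. The receptor constant segments Trac and Trbc2 were at 1531 and 1622 FPKM and at 1464 and 1659 FPKM, and all 19 beta variable segments in the tables were expressed. The beta segment with the highest level, Trbv13-2, was at 415 and 477 FPKM, and the delta segment Trdv1 at 13.1 and 9.33 FPKM.

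The interleukin-2 receptor led the cytokine receptors. Il2rg, the chain shared by several receptors, was at 564 and 577 FPKM, Il2rb, the signalling chain shared with the interleukin-15 receptor, at 447 and 373 FPKM, and Il2ra at 176 and 187 FPKM. The ranges of the 3 chains did not overlap between chains. The ligand gene Il2 was at 0.180 and 0.0416 FPKM, and so was far below 1 FPKM.

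Of 58 genes named as cytokine receptor chains or relatives, 32 were expressed (55.2%). Il6st (gp130) and Il6ra, which form the interleukin-6 receptor, were at 169 and 174 FPKM and at 80.03 and 86.1 FPKM. Il7r, which resting T cells need for survival and Treg carry at a low level, was at 104 and 77.8 FPKM. Ifngr1 was at 152 and 144 FPKM, Il21r at 117 and 128 FPKM and Tgfbr2, the receptor for TGF-beta, at 98.9 and 100.4 FPKM. Il1rl1, the receptor ST2 of interleukin-33, was at 17.5 and 8.501 FPKM, while Il23r and Il12rb2 stayed at 0.126 and 0.287 FPKM and at 0.228 and 0.209 FPKM.

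Feedback inhibitors of these receptors were expressed in 8 of 8 cases. Cish, induced by STAT5, was at 163 and 149 FPKM, Socs1 at 99.4 and 95.6 FPKM, and Socs3, which restrains interleukin-6 signals, at 84.6 and 89.5 FPKM. Socs2 was at 28.2 and 22.7 FPKM, and the remaining 4 lay between 5.09 and 15.3 FPKM.

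Of 28 genes of the TNF receptor superfamily, which includes costimulatory receptors, 16 were expressed (57.1%), beside 47.6% of all protein-coding genes. Cd27 was at 213 and 226 FPKM, Tnfrsf4 (OX40) at 197 and 155 FPKM, Tnfrsf18 (GITR) at 176 and 161 FPKM and Tnfrsf1b, the TNF receptor that supports Treg growth, at 99.2 and 77.1 FPKM. Tnfrsf9 (4-1BB), which marks recent receptor signals, was at 70.8 and 48.8 FPKM, and Tnfrsf25 (DR3) at 61.5 and 64.4 FPKM. Tnfrsf4, Tnfrsf1b and Tnfrsf9 were each higher in replicate 1.

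Of the ligands, Ltb (lymphotoxin beta), which shapes lymphoid tissue, was at 784 and 728 FPKM, and Lta at 33.1 and 34.2 FPKM. Cd40lg, the helper signal for B cells, was at 23.4 and 24.8 FPKM, Tnf at 13.2 and 13.7 FPKM, and the OX40 ligand Tnfsf4 at 0.682 and 0.561 FPKM. The GITR ligand Tnfsf18 was listed at 0 in both libraries.

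Of 23 chemokine receptors 12 were expressed (52.2%), and 2 were above 100 FPKM. These were Ccr7, which guides cells into the T zone of lymph nodes, at 208 and 227 FPKM, and Cxcr4 at 184 and 179 FPKM. Cxcr3 was at 39.6 and 24.4 FPKM, Ccr4 at 32.6 and 27.2 FPKM, the follicle receptor Cxcr5 at 24.1 and 20.1 FPKM, Ccr6 at 19.9 and 15.7 FPKM and Ccr8 at 17.6 and 9.51 FPKM. Of the sphingosine phosphate receptors, S1pr1, which lets T cells leave lymphoid organs, was at 233 and 271 FPKM and S1pr4 at 89.6 and 91.9 FPKM.

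Of 28 integrin genes 14 were expressed. The LFA-1 chains Itgb2 and Itgal were at 275 and 277 FPKM and at 210.4 and 193 FPKM, and the gut homing chain Itgb7 at 394 and 413 FPKM with its partner Itga4 at 108 and 112 FPKM. The other partner of Itgb7, Itgae (CD103), was at 27.6 and 20.4 FPKM. Itgb1 was at 167 and 116 FPKM and Itga6 at 123.3 and 129.6 FPKM. Itgb8 and Itgav, which together release active TGF-beta, were at 6.05 and 3.37 FPKM and at 20.05 and 16.4 FPKM.

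**Figure D3:**
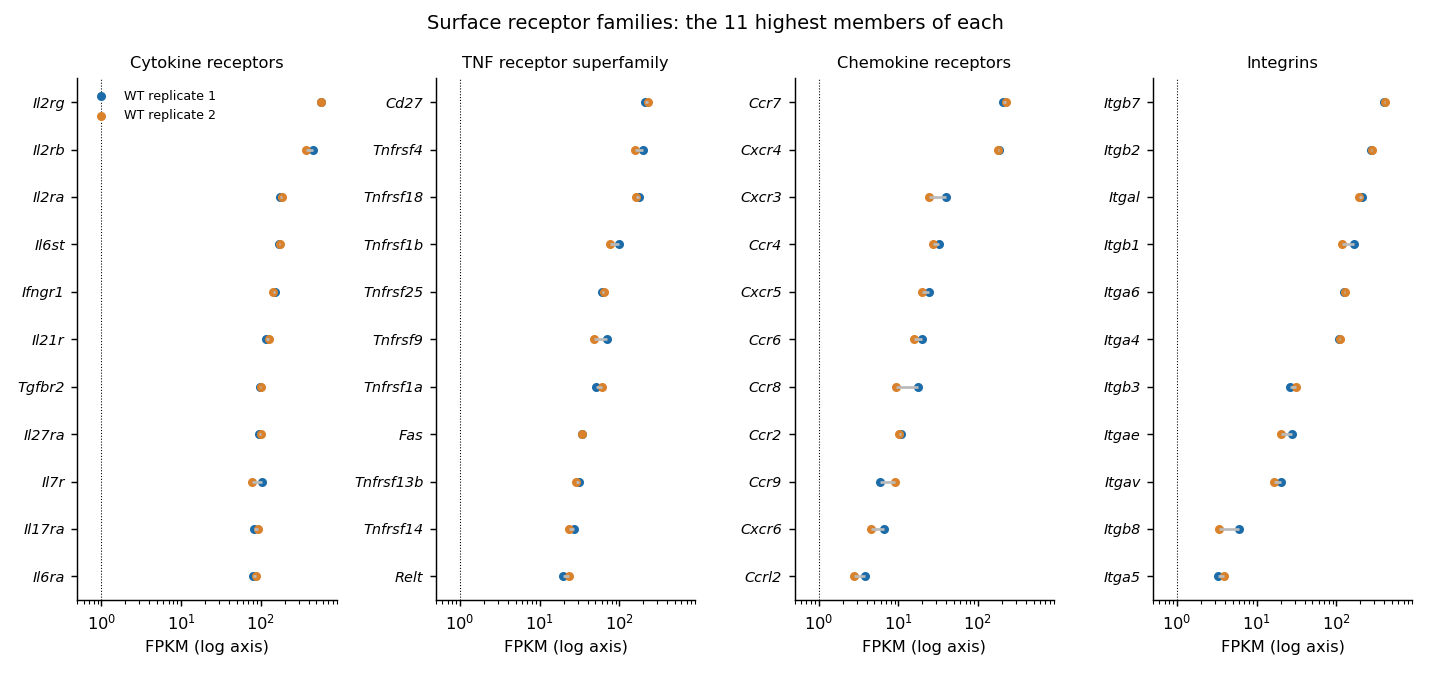
FPKM (log axis) of the 11 highest members of each of 4 surface receptor families, in WT replicate 1 (blue) and replicate 2 (orange); the dotted line marks 1 FPKM. The interleukin-2 receptor chains, Cd27, Ccr7, Cxcr4, Itgb7 and Itgb2 lie at the top of their families.

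Of the 28 listed Treg surface receptors 27 were expressed, and Havcr2 (TIM-3) was at 0.498 and 0.329 FPKM. Among the highest were Il2rg, Izumo1r (folate receptor 4) at 483 and 440.2 FPKM, Il2rb and Cd4 at 384 and 411 FPKM. Nrp1, a marker of thymic Treg in the mouse, was at 82.7 and 65.6 FPKM, Lrrc32 (GARP), which presents latent TGF-beta, at 75.4 and 68.3 FPKM, and Gpr83 at 63.3 and 70.4 FPKM. The inhibitory receptors Tigit, Pdcd1 (PD-1) and Lag3 were at 69.9 and 35.3 FPKM, at 49.2 and 27.4 FPKM and at 28.9 and 22.4 FPKM. The log2(replicate 1 / replicate 2) was 0.99 for Tigit and 0.84 for Pdcd1, against a standard deviation of 0.18 for genes at 10 to under 100 FPKM.

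Of 19 suppressive mediators 15 were expressed, with Lgals1 (galectin-1) at 261 and 205 FPKM, Ctla4 and Tgfb1 at 122 and 105 FPKM as the highest. The ectoenzymes that turn nucleotides into adenosine, Entpd1 (CD39) and Nt5e (CD73), were at 21.2 and 20.6 FPKM and at 81.4 and 70.6 FPKM. Penk, the precursor of enkephalins, was at 34.5 and 14.8 FPKM. Ebi3, a chain of interleukins 27 and 35, was at 15.7 and 8.498 FPKM, and its partner in interleukin-35, Il12a, was listed at 0 in both libraries. Interleukin-10 and granzyme B were low, with Il10 at 2.46 and 1.82 FPKM and Gzmb at 4.63 and 3.67 FPKM, and Areg, a tissue repair factor, was at 0.790 and 0.801 FPKM.

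Of 30 T helper cytokines 6 were expressed, which are Ltb, Il16 at 162 and 172 FPKM, Tgfb1, Lta, Tnf and Il10. Ifng was at 1.65 and 0.983 FPKM, Il4 at 0.716 and 0.108 FPKM, and Il17a, Il17f, Il22, Il5 and Il9 were listed at 0 in both libraries. A gene of 1 kb needs 0.0866 FPKM in replicate 1 and 0.118 FPKM in replicate 2 to reach 3 fragments.

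All 27 genes of the naive and central memory list were expressed, with a median of 137 FPKM, and 15 had a mean of 100 FPKM or more. Ms4a4b, a membrane protein of T cells, was highest at 904 and 1107 FPKM, and Tcf7, Rgs10 at 299 and 324 FPKM and Klf2 were also high. Of the 34 effector Treg genes 31 were expressed, with a median of 18.4 FPKM over members and with 4 at 100 FPKM or more. These were Lgals1, S100a4 at 189 and 134 FPKM, Itgb1 and S100a6 at 168 and 98.8 FPKM. Irf4 and Prdm1 (Blimp-1), the factors of effector Treg, were at 21.1 and 16.8 FPKM and at 5.44 and 3.65 FPKM, and Klrg1 at 19.6 and 8.14 FPKM.

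Of 20 follicular Treg genes 17 were expressed, among them Cxcr4, Slamf6 at 182 and 174 FPKM, P2rx7 at 91.02 and 101 FPKM and Sh2d1a (SAP) at 96.04 and 90.8 FPKM. Il1r2, a decoy receptor for interleukin-1 of follicular Treg, was at 14.8 and 4.93 FPKM, a 3.01-fold difference between the libraries. Il21 and Ascl2, of follicular helper cells, were at 0.518 and 0.298 FPKM and at 0.492 and 0.336 FPKM.

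**Figure D4:**
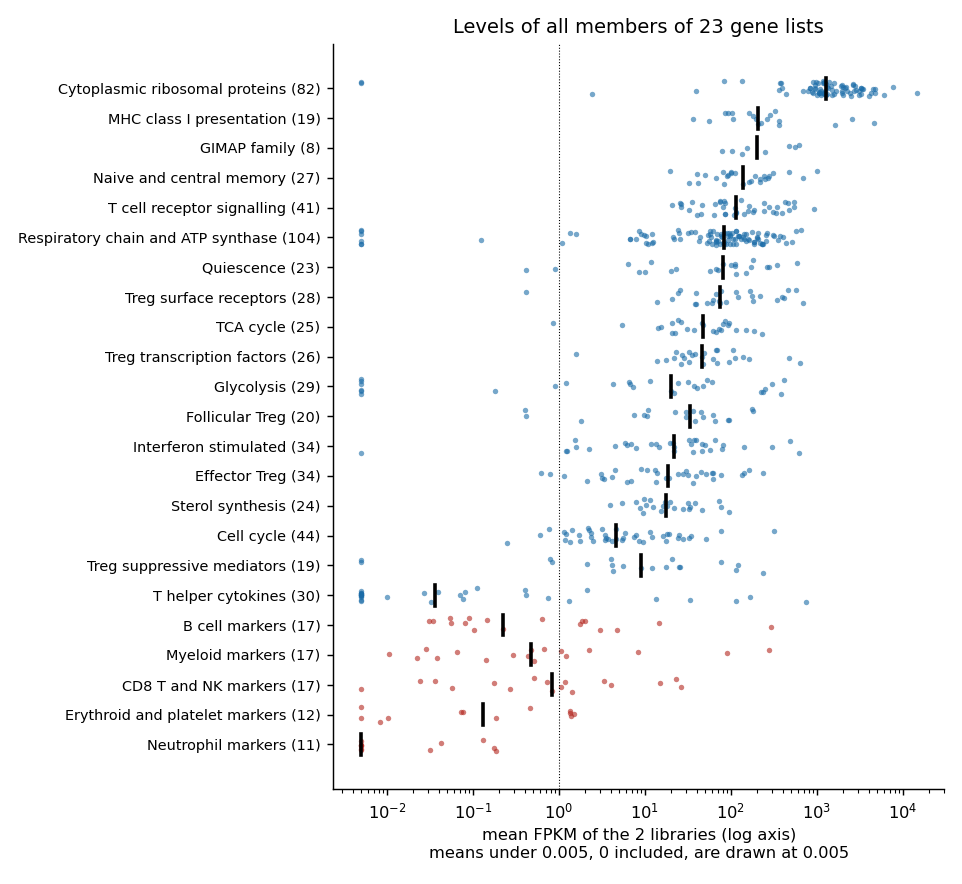
Mean FPKM of both libraries (log axis) for every member of 23 gene lists, with the number of genes in the tables in brackets; the bar is the median over all members and the dotted line marks 1 FPKM. Lists in red mark other cell types. Naive and central memory genes lie above effector Treg genes, and most members of the lists in red lie below 1 FPKM. The plasmacytoid dendritic cell and conventional CD4 T cell lists, most of whose members were expressed, are not drawn.

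The quiescence list had 21 of 23 genes expressed. Txnip, which limits glucose uptake, was at 546 and 623 FPKM, Slfn2, which keeps T cells at rest, at 329.7 and 351 FPKM, Tsc22d3 (GILZ) at 244 and 275 FPKM and the growth inhibitor Btg1 at 172 and 184 FPKM. Cdkn1b (p27) was at 84.5 and 79.1 FPKM, and 4632428N05Rik, the older symbol of the inhibitory receptor VISTA, at 172 and 171 FPKM. The GIMAP family, small GTPases of lymphocyte survival, had all 8 genes expressed, up to Gimap4 at 575 and 673 FPKM and Gimap3 at 530.3 and 574 FPKM.

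The cell cycle list had 37 of 44 genes expressed, but at a median of 5.85 FPKM, and of 4.63 FPKM over all 44 members. Genes that resting cells also use led it, with Tubb5 at 311 and 323 FPKM and Pcna at 75.7 and 77.8 FPKM. Genes of mitosis were low, with Mki67 at 4.78 and 2.13 FPKM, Top2a at 15.2 and 7.43 FPKM, Birc5 at 7.71 and 3.34 FPKM and Ccnb1 at 1.82 and 0.629 FPKM.

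Genes that rise early after a receptor signal were partly high. Nr4a1 (Nur77) was at 50.02 and 48.3 FPKM, Egr1 at 52.1 and 49.7 FPKM, Egr2 at 25.03 and 19.8 FPKM, Junb at 135 and 119 FPKM and Cd69 at 91.1 and 102 FPKM. Fos was at 4.33 and 4.89 FPKM, Fosb at 0.840 and 0.628 FPKM and Hspa1a, a heat shock gene that tissue handling can switch on, at 0.295 and 0.139 FPKM. Of the 34 genes in this list 27 were expressed.

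Of the 34 interferon stimulated genes 33 were expressed, at a median of 21.9 FPKM. Ifi27l2a was at 658 and 594 FPKM and Samhd1, which lowers nucleotide pools, at 487 and 485 FPKM, while the antiviral Mx1 and Rsad2 were at 1.71 and 1.44 FPKM and at 2.14 and 2.31 FPKM. All 19 genes of class I presentation were expressed, H2-D1 at 1667 and 1579 FPKM and the loader Tapbp at 377 and 353 FPKM. H2 class I genes are near-identical in part, so levels of single members are uncertain.

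Genes of survival included the BCL-2 family guardian Mcl1 at 285 and 315 FPKM, on which Treg depend, Bcl2 at 55.3 and 66.3 FPKM and the killer Bcl2l11 (BIM) at 29.6 and 32.00 FPKM. Casp8 was at 108 and 126 FPKM and Fas at 33.8 and 34.4 FPKM. Of 29 listed genes 26 were expressed.

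In metabolism, 20 of 29 glycolysis genes were expressed, and the 6 listed at 0 in both libraries are isozymes of liver, muscle or testis. Eno1 was at 414 and 411 FPKM, Ldha at 377 and 389 FPKM, Gapdh at 302 and 298 FPKM and the glucose transporters Slc2a3 and Slc2a1 at 50.1 and 54.5 FPKM and at 21.9 and 26.7 FPKM. Hk1 was at 62.97 and 58.2 FPKM and the inducible Hk2 at 1.54 and 0.884 FPKM. Pgam1 and Pgk1, at 6.84 and 6.69 FPKM and at 31.5 and 31.1 FPKM, have processed copies, and their levels are uncertain.

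Of 25 TCA cycle genes 24 were expressed, Mdh2 highest at 229 and 226 FPKM, and of 104 nuclear genes of the respiratory chain and ATP synthase 94 were, Atp5b highest at 651 and 653 FPKM. All 24 sterol synthesis genes in the tables were expressed at a median of 17.6 FPKM. Srebf2, the master factor, was at 90.7 and 99.4 FPKM.

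Several genes of general use had a 0 in both libraries. Eef1a1, the main elongation factor, was one of 53 essential genes examined, and the other 52 were expressed at a median of 394 FPKM. Of the 13 mitochondrially encoded genes, mt-Co1, mt-Co2, mt-Co3, mt-Atp6, mt-Atp8 and mt-Nd4l were listed at 0, whereas mt-Nd2 was at 1922 and 2196 FPKM and mt-Nd4 at 1314 and 1481 FPKM. Atp5l, an ATP synthase subunit, was at 0.252 and 0 FPKM. These zeros are treated as failed estimates, and a 0 elsewhere is likewise given only as listed at 0. In all, 6549 protein-coding genes were listed at 0 in both libraries.

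Markers of other cells were mostly under 1 FPKM. Of 17 B cell markers 7 were expressed, the highest being Ighm, the constant gene of immunoglobulin M, at 306 and 274 FPKM and Cd79b at 14.1 and 14.6 FPKM, and the defining Ms4a1 and Pax5 were at 0.252 and 0.0374 FPKM and at 0.146 and 0.0133 FPKM. Of 17 myeloid markers 3 were expressed, of which Ctss and Cst3 are also used by T cells, and Csf1r and Itgax were at 0.258 and 0.0295 FPKM and at 0.0238 and 0.0335 FPKM. None of 11 neutrophil markers was expressed, and Ly6g and Elane were listed at 0. Of 17 CD8 T and NK markers 6 were expressed, with Ccl5 at 35.1 and 16.9 FPKM and Nkg7 at 30.3 and 15.9 FPKM, and with Cd8a at 0.274 and 0.261 FPKM and Ncr1 at 0.0733 and 0 FPKM.

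Of 12 erythroid and platelet markers 1 was expressed, and Pf4 was at 2.24 and 0.468 FPKM. Of 12 stroma and endothelium markers 2 were expressed, Pecam1 at 57.9 and 68.05 FPKM and Epcam at 4.51 and 2.98 FPKM, with the endothelial Cdh5 at 0.0617 and 0.0589 FPKM and the fibroblast genes Dcn and Col3a1 listed at 0. Of 12 plasmacytoid dendritic cell markers 8 were expressed, with Bst2 at 61.3 and 68.4 FPKM and Pacsin1 at 34.4 and 36.9 FPKM, and with the defining Siglech at 0.115 and 0.105 FPKM. Of 7 plasma cell markers 3 were expressed, all of them factors that T cells share, with Jchain at 0.125 and 0.268 FPKM and Tnfrsf17 listed at 0. Of 9 markers of conventional CD4 T cells 8 were expressed, among them Igfbp4 at 218 and 271 FPKM and Themis at 31.1 and 34.1 FPKM. The part of conventional CD4 T cells in these levels was not tested.

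The 2 libraries differed in groups. Of the 10244 expressed genes, 42.2% were higher in replicate 1 by any amount, with a median log2(replicate 1 / replicate 2) of -0.03. Of the 31 expressed effector Treg genes 29 were higher in replicate 1, with a median of 0.44, and of 37 cell cycle genes 34 were, with a median of 0.38. Of 15 suppressive mediators 14 were higher there, with a median of 0.34, and 5 of these 15 are also effector Treg genes. With 1 library on each side this is a difference between libraries, not between conditions.

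Other lists were higher in replicate 2. Of 27 naive and central memory genes 24 were, with a median log2(replicate 1 / replicate 2) of -0.15, and all 8 GIMAP genes were, with a median of -0.15. Of 24 sterol synthesis genes 19 were, with a median of -0.25, among them Msmo1 at 26.4 and 40.4 FPKM and Sqle at 12.5 and 20.2 FPKM. Of 24 TCA cycle genes 22 were higher in replicate 2, with a median of -0.09, and of 80 ribosomal protein genes 71, with a median of -0.10. When the libraries were scaled to a common median ratio, 2 of 8 GIMAP genes and 4 of 24 TCA cycle genes were higher in replicate 1.

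The receptor signalling list was balanced, with 15 of 41 genes higher in replicate 1 and a median of -0.04, and so was class I presentation, with 10 of 19. Of the Treg transcription factors 14 of 25 were higher in replicate 1, and of the Treg surface receptors 20 of 27, with a median of 0.20. Of these 27 receptors, 6 are also effector Treg genes and 4 are also suppressive mediators. The log2(replicate 1 / replicate 2) was 0.18 for Foxp3, 0.36 for Ikzf2 and -0.14 for Tcf7.

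Markers of some other cells moved with this difference. The summed FPKM of the 17 CD8 T and NK markers was 95.1 and 59.96. Most of it was Ccl5 and Nkg7, both higher in replicate 1, while Cd8a was nearly equal between the libraries. The sum of the 12 erythroid and platelet markers was 9.68 and 3.07, and of the 11 neutrophil markers 1.05 and 0.0933. The summed FPKM of the B cell markers was 338 and 300.2, most of it Ighm, and 31.9 and 26.5 without it. The sum of the myeloid markers was 386 and 381, most of it Ctss and Cst3, and 17.5 and 13.5 without these. The sum of the plasmacytoid markers was 124 and 133.

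By member, 14 of 17 B cell markers and 13 of 17 myeloid markers were higher in replicate 1, beside 49.0% of all genes above 0 in at least 1 library. Of those with a mean under 1 FPKM, 10 of 10 B cell and 9 of 11 myeloid markers were higher there, beside 59.5% of all genes with a mean above 0 and under 1 FPKM. Such levels rest on few fragments. Of 11 class II genes 8 were higher in replicate 1, among them Cd74 at 35.02 and 17.6 FPKM and H2-Aa at 2.80 and 0.881 FPKM, while H2-DMa, at 36.4 and 38.97 FPKM, H2-Ob, at 19.95 and 24.6 FPKM, and H2-DMb1, at 0.199 and 0.332 FPKM, were higher in replicate 2. The part of such cells in the difference between the libraries was not tested.

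**Figure D5:**
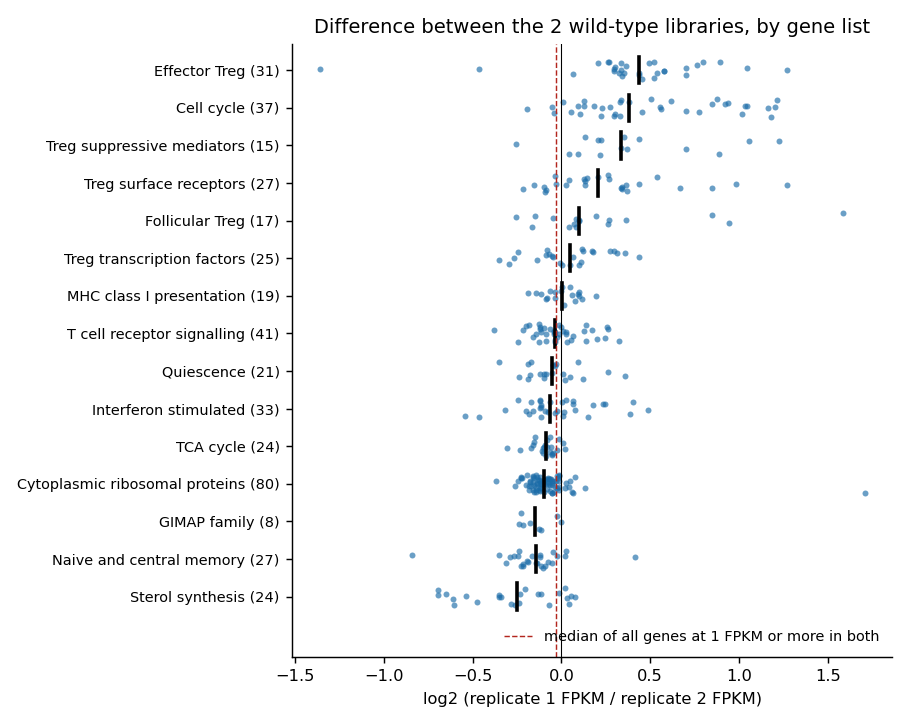
log2 of the ratio of replicate 1 to replicate 2 for each expressed member of 15 gene lists (number in brackets), with a bar at the list median and a dashed red line at the median of all expressed genes, -0.03. Effector Treg and cell cycle members lie mostly to the right and naive, GIMAP and sterol synthesis members mostly to the left.

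Single genes far apart were few. Of the 7990 protein-coding genes expressed with a mean of at least 5 FPKM, 22 were over 2-fold apart, 17 of them higher in replicate 1. Abcb1a, a drug efflux pump, was the farthest at 37.3 and 6.53 FPKM, a 5.71-fold difference. Il1r2, Nckipsd at 9.21 and 3.23 FPKM, Gm14295 at 8.28 and 2.995 FPKM, Klrg1, Csf1 at 7.84 and 3.33 FPKM, Penk, Birc5, Eps8l1 at 14.5 and 6.42 FPKM and the peptide transporter Slc15a2 at 16.4 and 7.69 FPKM followed.

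In the other direction, B230307C23Rik was at 30.6 and 78.7 FPKM, the proteasome subunit Psmd13 at 67.6 and 163 FPKM, Gm10226 at 6.33 and 14.98 FPKM, Rint1 at 13.3 and 27.4 FPKM and 5830428H23Rik at 12.1 and 24.5 FPKM. Psmd13 was the only one of 36 expressed proteasome genes that was over 2-fold apart. Il1r2, Klrg1, Penk and Birc5 are members of the lists above, while Abcb1a is not among the lists that were higher as a group. Of the 36 expressed proteasome genes, 9 were higher in replicate 1, beside 42.2% of all expressed genes.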

How the data were processed

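RNA of sorted wild-type Treg was sequenced from TruSeq stranded mRNA libraries, per the labels' protocols. The authors deposited FPKM per gene in a table for each library. The submitters' processing notes name STAR, Cuffdiff and GRCm38, while tool versions, the annotation and how libraries were scaled are not stated there. The 32767 blank rows of each table were dropped, 27 gene names turned into dates were restored by identifier, and 32503 identifiers matched GENCODE vM21. The identifiers end before 1757 annotated protein-coding genes, which were not analysed here.

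Genes with at least 1 FPKM in both libraries were described as deposited, with no rescaling. Lists (28 by symbol, 43 by family name), members and alternatives were chosen with earlier results of these data known, so no list supports its own direction. Named genes are the markers, the 30 highest genes, up to 5 leading members of each list and the members whose role or low value is spoken of (some beyond the first 5, chosen after their values were seen), and up to 10 genes in each direction with the largest ratio and a mean of at least 5 FPKM. Some genes that this rule names are not reported here, though the counts include them. Ratios are log2(replicate 1 / replicate 2) with no pseudocount. The depth estimate returned the known depth of simulated data. These data used the same lengths and formula as the estimate, so they do not check its use on the deposited FPKM. Python 3.11.15, pandas 2.3.3 and scipy 1.17.1 were used. With 2 libraries of 1 group there was no test.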

Additional observations from a re-analysis of the deposited data

How the results depend on the processing

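The count of expressed genes lay between 8129 (at 5 FPKM) and 11006 (at 0.5 FPKM) in the alternatives run, and without each replicate in turn it was 10435 and 10632. The count of genes over 2-fold apart depended on the filter. It was 128, and became 58 with a mean of at least 5 FPKM, 226 with no filter and a pseudocount of 1, 64 with the pseudocount alone, 71 among protein-coding genes and 137 after scaling to a common median ratio. The Pearson correlation lay between 0.990 and 0.992. The ribosomal share of 25.9% became 27.1% among protein-coding genes and was 25.5% to 26.3% without each replicate. The number of lists above the protein-coding median was 48, 45 and 50 without each replicate and 54 with members listed at 0 kept. Keeping them moved the median of 41 of 71 lists and also lowered the protein-coding median to which lists were held, from 11.3 to 0.696 FPKM. The depth of replicate 2 was 73.1% to 73.7% of replicate 1 with lengths shortened by up to 300 bases, an alternative chosen after seeing the data, and a gene of 1 kb at 1 FPKM rests on about 41.0 and 29.97 fragments at 300 bases. The share of expressed genes with CCGGAAG was 16.4% with the most upstream promoter only. Among members at 10 FPKM or more in both, also chosen after seeing the data, 19 of 19 effector Treg genes (100%) and 8 of 8 suppressive mediators (100%) were higher in replicate 1, as were 11 of 13 cell cycle genes. Low levels rest on few fragments, and FPKM of short genes and of genes with near-identical copies are the least certain. No paired analysis was possible because only 1 group was described and no result comes from a test.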

Other observations

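Of the lists, 48 of 71 had a median above 11.3 FPKM, the median of the 12460 protein-coding genes above 0 in both libraries, where members listed at 0 in a library were left out. Some genes outside the T cell lists were well above 1 FPKM. Gata1, best known as the factor of red cell and platelet precursors, was at 24.05 and 29.6 FPKM, while its relative Gata2 was at 0.00921 and 0 FPKM and the erythroid factor Klf1 at 0.0204 and 0 FPKM. Hdac6, a neighbouring gene on the X chromosome, was at 4.999 and 6.13 FPKM. Pecam1, an adhesion receptor of endothelium that T cells also carry, was at 57.9 and 68.05 FPKM, and Tlr1 and Tlr7, sensors of bacterial lipid and of RNA, were at 47.1 and 53.6 FPKM and at 15.8 and 14.6 FPKM.

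The signalling chain Cd79a of the B cell receptor was at 0.788 and 0.470 FPKM. The beta chain Cd8b1 was at 14.1 and 15.4 FPKM and the alpha chain Cd8a at 0.274 and 0.261 FPKM.

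Gene families of other tissues were mostly listed at 0 or low. Of 877 olfactory receptors none reached 1 FPKM in both libraries and 865 were listed at 0 in both. Of 190 vomeronasal receptors, 50 keratins, 41 beta-defensins and 38 Hox genes none did, and of 44 collagens 3 did, with Col11a2 the highest at 3.92 and 2.53 FPKM. Of 16 writers and readers of DNA methylation 15 were expressed, with the reader Mbd2 at 129 and 146 FPKM, Dnmt1 at 28.7 and 27.02 FPKM, and Tet3 and Tet2, which remove the mark, at 28.1 and 26.7 FPKM and at 10.1 and 11.6 FPKM.

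Expressed genes made up 53.4% of the protein-coding genes of chromosome 5, 53.0% of chromosome 19 and 36.8% of chromosome X, and none of 12 on chromosome Y.

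Short RNA genes gave large values, of which some were close and others far apart between the libraries. Of 17 microRNA and snoRNA genes with a mean of at least 100 FPKM, 15 lay within a protein-coding gene on the same strand. Gm22133, annotated as a microRNA of 109 bases inside Ftl1, was at 4495 and 4657 FPKM, and Ftl1 at 439 and 424 FPKM. Mir686, inside Psmb5, was at 1432 and 1358 FPKM, with Psmb5 at 56.9 and 54.0 FPKM. Snord35a was at 58.2 and 557 FPKM, and Snord53 and Mir1894 were listed at 0 in 1 library and at 722 and 289 FPKM in the other. Gm26457 and Gm25108, of 78 bases like Snord53, were both at 361 FPKM in replicate 2 and listed at 0 in replicate 1. Equal values at equal length are what steps of whole fragments give. Large values of genes this short can therefore rest on very few fragments.

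The beta variable segments summed to 2579 and 3063 FPKM and the 28 alpha segments in the tables to 228 and 252 FPKM. Any segments beyond the last identifier are not in these sums, which therefore do not compare the 2 chains. The constant segments Trac and Trbc2 were closer, at 1531 and 1622 FPKM and at 1464 and 1659 FPKM. Of 7 gamma variable segments none reached 1 FPKM in both libraries. Of 4 gamma constant segments 3 did, with Tcrg-C1 the highest at 7.35 and 8.17 FPKM.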
